A study of Mus with 8 samples.

Results

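Major urinary proteins are small lipocalins that mouse hepatocytes secrete into the blood and that pass into the urine, where they carry volatile pheromones. The genes examined here are Mup1, Mup3, Mup7, Mup17, Mup20 and Mup21, found by symbol in a table of 54532 genes that lists 48 rows with a Mup name. They were picked with the liver contrast described here already known, so their values are given as a description without a test. Liver RNA came from 8 libraries. In 4 of them, DSSHA libraries 35, 45, 65 and 71, the mice had received dextran sulfate sodium (DSS) followed by a high-fat diet with alcohol. In the other 4, DSS libraries 15, 48, 49 and 50, they are labelled with DSS alone. DSS is a polysaccharide that injures the colon lining. It was given at 2.5% in both groups and stopped on day 6, so both groups had the agent, colitis at the time of sampling was not measured in these data, and no liver from mice without DSS was analysed here. The series' text names high-fat feed with or without alcohol after DSS, without saying which feed the mice labelled DSS received, and the labels give no strain, age or sex. Diet and alcohol came together in the DSSHA group. Each library has its own number, but nothing says that each is a separate mouse, so errors describe the spread between these libraries.

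As background, Mup transcription in liver depends on pulses of growth hormone acting through the growth hormone receptor, JAK2 and STAT5B, and it is higher in male than in female mice. The genes form 1 cluster in which the copies in the middle are nearly identical and those toward its edges have diverged. Mup20 encodes darcin, the protein that makes male urine attractive to females. A read that matches several of the middle copies cannot be assigned to one of them with confidence.

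Of the 48 Mup rows, 47 lie on chromosome 4 between 59956804 and 62150863 (GRCm38), a stretch of 2.19 Mb, and the other, Mup-ps22, is listed on chromosome 11. All 6 genes are protein coding and on the minus strand. Mup7 (ENSMUSG00000073842, 60066469 to 60070475), Mup1 (ENSMUSG00000078683, 60498012 to 60501960) and Mup17 (ENSMUSG00000096688, 61591929 to 61595871) are counted here among the middle copies. By position Mup7 lies near the start of the cluster, with Mup4 and Mup6 before it, and identity between copies was not computed. Mup20 (ENSMUSG00000078672, 62050234 to 62054158), Mup3 (ENSMUSG00000066154, 62083476 to 62087342) and Mup21 (ENSMUSG00000066153, 62147932 to 62150863) lie together at the far end. RefSeq names on the same build matched all 6, but the symbols have moved between copies. Mup1 is also an older name of Mup4 and Mup12, Mup3 of Mup7, Mup7 of Mup1, and Mup17 of Mup19.

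Libraries differed in ways that touch every value below. Total counts ran from 12502300 to 16967839. Mitochondrially encoded genes took 30.2 to 73.0% of them in DSSHA libraries and 55.8 to 79.1% in DSS libraries, so nuclear genes held 3453086 to 10947612 counts in DSSHA and 2722757 to 6170482 counts in DSS libraries. Low counts of 1 to 9 were found for 784 genes in library DSSHA 35 and for 4319 to 4987 genes in each of the other 7 libraries. Xist had 0 counts in every library and Ddx3y, which is Y-linked, had 245 to 712, as in male tissue. All 12 hepatocyte markers had counts, but their summed level was 30093 to 38317 CPM (counts per 1e+06 of the library size scaled by the TMM method) in DSSHA libraries and 50085 to 76160 CPM in DSS libraries. The 8 neutrophil markers summed to 27.3 to 56.2 CPM in DSSHA and 2.88 to 11.8 CPM in DSS libraries, with Ly6g and Ltf under 10 counts in all libraries together. The 6 Kupffer cell markers summed to 279 to 594 CPM in DSSHA and 161 to 259 CPM in DSS libraries. Sums for cholangiocyte, endothelial and stellate markers overlapped between the groups. The part of these differences in the Mup values was not tested, and in bulk liver fewer hepatocytes and less RNA per hepatocyte cannot be told apart.

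The 6 genes together were far scarcer in DSSHA livers. They held 0.115, 0.0544, 0.0923 and 0.133% of nuclear counts in DSSHA libraries 35, 45, 65 and 71, against 0.761, 1.46, 1.18 and 1.09% in DSS libraries 15, 48, 49 and 50. The highest DSSHA value lay well below the lowest DSS value. The 95% Wilson intervals, such as 0.130 to 0.135% for DSSHA 71 and 0.754 to 0.768% for DSS 15, cover counting error only. In CPM the sum averaged 403 ± 133 in DSSHA and 4738 ± 1414 in DSS libraries (SD, n = 4 each), which is 11.8-fold lower in DSSHA. The fitted log2 fold change of the summed counts was -3.56 ± 0.36 (SE, edgeR), and -3.63 without library DSSHA 35. Against hepatocyte markers rather than all nuclear genes, the sum equalled 1.19 ± 0.435% of the markers' counts in DSSHA and 7.26 ± 1.20% in DSS libraries (SD, n = 4 each), a 6.08-fold difference of means. The mean CPM of the marker sum was 1.87-fold lower in DSSHA. Of the 12 markers edgeR and limma-voom called 0 and DESeq2 called 1 lower and 1 higher, and at an unadjusted edgeR p under 0.05 there were 3 lower and 1 higher. Their median log2 fold change was -0.43.

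**Figure D1:**
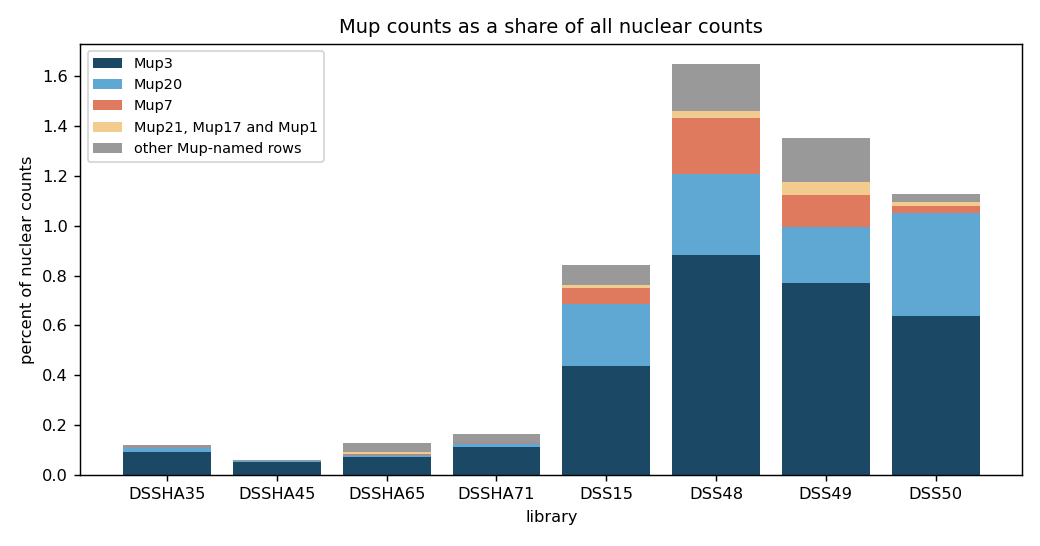
Bars show counts of Mup rows as percent of all nuclear counts in each library, stacked by gene, with DSSHA libraries left of DSS libraries; Gm21320 is not included. Each DSSHA bar stays under 0.165%, while the DSS bars run from 0.843 to 1.65%.

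All 6 genes passed the filter on low counts. With edgeR's quasi-likelihood test, 4 of the 6 were among the genes called lower in DSSHA, where 0.674% of all 11729 genes tested were called lower, 0.588% higher and 1.26% in either direction. Since the genes were picked from this contrast, nothing is read from that count. The same 4 genes, Mup3, Mup20, Mup7 and Mup21, had no overlap between the groups in CPM, as did 4.63% of tested genes in the same direction. Across all tested genes the median log2 fold change was -0.01.

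Mup3 supplied most of the Mup counts. It had 367, 223, 272 and 457 CPM in DSSHA libraries 35, 45, 65 and 71, against 1686, 3773, 3502 and 2594 CPM in DSS libraries 15, 48, 49 and 50. Each group varied about as much within itself, with a CV of 31.5% in DSSHA and 32.8% in DSS. The log2 fold change of Mup3 was -3.13 ± 0.35 (SE), and it ran from -3.33 to -2.98 when each library was left out in turn. Per length, in the deposited FPKM (counts divided by gene length and by a scaled library size), Mup3 ranked 58 to 116 among nuclear genes in DSSHA libraries and 8 to 16 in DSS libraries.

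Mup20, the darcin gene, had 92.0, 20.3, 35.7 and 80.0 CPM in DSSHA libraries 35, 45, 65 and 71. It had 958, 1388, 1012 and 1672 CPM in DSS libraries 15, 48, 49 and 50. The DSSHA values were thus lower in every library, and 45 and 65 were the lowest. Its mean was 22.1-fold lower in DSSHA, with a log2 fold change of -4.46 ± 0.49 (SE), or -4.79 without library DSSHA 35. By FPKM it ranked 214 to 857 in DSSHA and 14 to 28 in DSS libraries.

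Mup21 lies next to Mup3 at the edge of the cluster and had far fewer counts. They were 12, 16, 10 and 34 in DSSHA libraries 35, 45, 65 and 71, against 612, 1200, 624 and 404 in DSS libraries 15, 48, 49 and 50. In CPM these are 0.672, 0.658, 1.10 and 1.35 in DSSHA and 38.2, 84.2, 74.8 and 60.2 in DSS libraries. The mean was 68.0-fold lower in DSSHA and the log2 fold change was -6.08 ± 0.38 (SE). It was -5.27 on the log2(FPKM + 1) scale, which understates folds of low genes, and between -6.36 and -5.93 when single libraries were left out. Ranked from the lowest fitted log2 fold change of all tested genes, Mup7 was number 1, Mup21 number 3, Mup20 number 11, Mup3 number 28, Mup17 number 49 and Mup1 number 308.

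**Figure D2:**
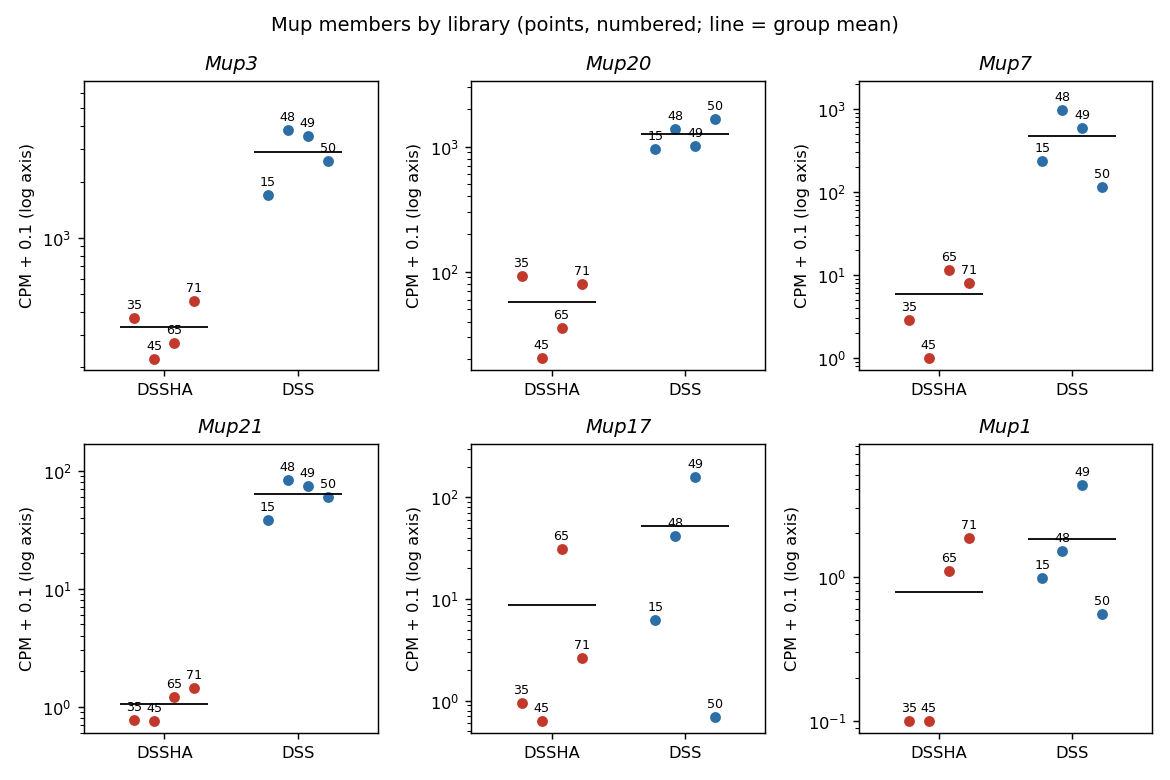
Each panel shows 1 Mup gene in CPM + 0.1 on a log axis, with 1 numbered point per library, DSSHA left of DSS, and a line at the group mean. Points of Mup3, Mup20, Mup7 and Mup21 do not overlap between the groups, whereas those of Mup17 and Mup1 do.

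The 3 genes at the far end of the cluster were not reduced in proportion. Per length, Mup20 stood at 28.8, 10.5, 15.1 and 20.2% of Mup3 in DSSHA libraries 35, 45, 65 and 71, against 65.4, 42.3, 33.2 and 74.2% in DSS libraries 15, 48, 49 and 50. Such a ratio within a library does not depend on how libraries are scaled. Every DSSHA ratio was below every DSS ratio, though DSSHA 35 and DSS 49 came close to each other. Mup21 stood at 0.289, 0.466, 0.641 and 0.466% of Mup3 in DSSHA libraries 35, 45, 65 and 71. In DSS libraries 15, 48, 49 and 50 that ratio was 3.57, 3.52, 3.37 and 3.66%, a nearly fixed proportion. As a share of the 6 genes' counts, Mup21 held 0.145 to 0.314% in DSSHA and 1.304 to 1.401% in DSS libraries. The Wilson intervals of the DSS libraries overlapped one another (1.21 to 1.41% for DSS 15, 1.30 to 1.51% for DSS 49), and the widest DSSHA interval, for library 65, was 0.171 to 0.577%. Mup3 made up 82.6 ± 6.02% of the 6 genes' counts in DSSHA and 60.5 ± 3.59% in DSS libraries (SD, n = 4 each). Mup20 made up 13.2 ± 5.15% in DSSHA and 27.9 ± 8.77% in DSS libraries, with DSSHA 35 at 19.9% just above DSS 49 at 18.9%.

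**Figure D3:**
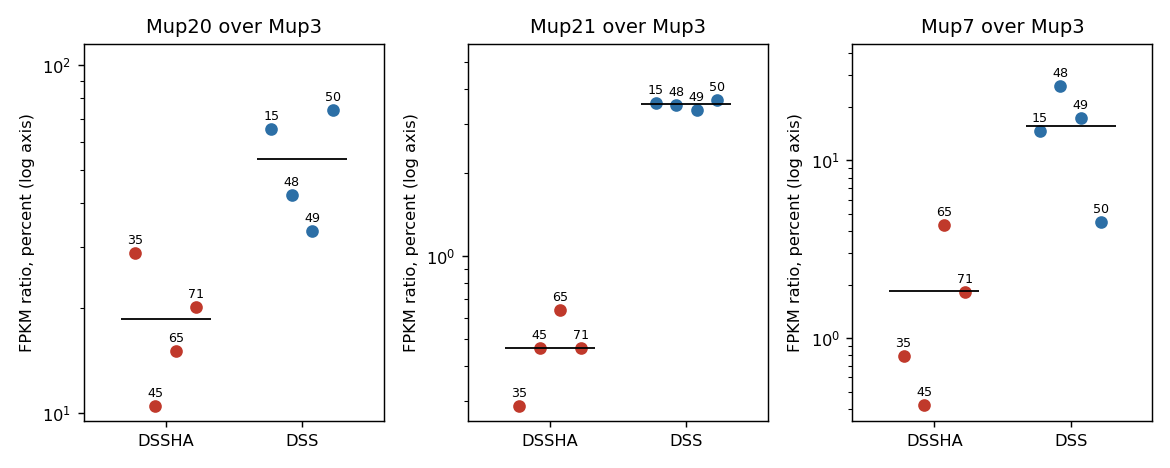
Panels show the FPKM of Mup20, Mup21 and Mup7 as percent of Mup3 on a log axis, 1 numbered point per library, DSSHA left of DSS, line at the group mean. The DSS points of Mup21 lie between 3.37 and 3.66%, above DSSHA points of 0.289 to 0.641%.

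Mup7 had the most counts of the middle copies in DSS livers, with 23120 over the 4 libraries, but in DSSHA livers its 376 counts were fewer than the 2638 of Mup11. Mup7 had 2.80, 0.905, 11.4 and 7.98 CPM in DSSHA libraries 35, 45, 65 and 71, against 238, 957, 587 and 113 CPM in DSS libraries 15, 48, 49 and 50. No DSSHA library reached the lowest DSS library, but the values varied 12.6-fold within DSSHA and 8.48-fold within DSS. The log2 fold change of Mup7 was -6.39 ± 0.91 (SE), and -5.79 without library DSS 48. Relative to Mup3 per length, Mup7 stood at 0.420 to 4.33% in DSSHA and 4.49 to 26.2% in DSS libraries.

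Mup17 did not separate the groups. Its counts were 15, 13, 280 and 64 in DSSHA libraries 35, 45, 65 and 71, against 98, 590, 1326 and 4 in DSS libraries 15, 48, 49 and 50. In CPM the DSSHA values ran from 0.535 to 30.9 and the DSS values from 0.596 to 159, so library DSS 50 lay at the level of the lowest DSSHA libraries. Its log2 fold change was -2.63 ± 1.49 (SE), -0.97 without DSS 49 and -5.28 without DSSHA 65. Fitting the mitochondrial share beside the group gave -1.94.

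Mup1 was close to the detection limit. It had 0, 0, 9 and 44 counts in DSSHA libraries 35, 45, 65 and 71, against 14, 20, 35 and 3 counts in DSS libraries 15, 48, 49 and 50. A count of 0 allows up to 3 counts, or 0.168 CPM in DSSHA 35 and 0.123 CPM in DSSHA 45. In CPM Mup1 stood at 0, 0, 0.994 and 1.75 in DSSHA libraries 35, 45, 65 and 71, against 0.873, 1.403, 4.19 and 0.447 in DSS libraries 15, 48, 49 and 50, so the groups overlapped and DSS 49 was highest. The log2 fold change was -1.33 ± 1.26 (SE), from -2.59 without DSSHA 71 to -0.45 without DSS 49, with -0.90 without DSSHA 45 and -0.91 without DSSHA 35. It was -2.82 with limma-voom and -0.49 on the log2(FPKM + 1) scale, so its size is not determined by these libraries.

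By length-scaled level the order of the group means was Mup3, Mup20, Mup17, Mup7, Mup21 and Mup1 in DSSHA livers, at 302 ± 92.9, 59.9 ± 35.8, 9.30 ± 15.9, 5.48 ± 4.59, 1.37 ± 0.491 and 0.424 ± 0.522 FPKM. In DSS livers it was Mup3, Mup20, Mup7, Mup21, Mup17 and Mup1, at 2646 ± 862.5, 1325 ± 345, 449 ± 360, 92.9 ± 28.8, 54.6 ± 77.6 and 1.07 ± 1.04 FPKM (SD, n = 4 each). The place of Mup17 in DSSHA rested on library 65: without it Mup17 averaged 1.37 ± 1.13 FPKM, below Mup7 at 3.67 ± 3.44 FPKM (SD, n = 3 each). Mup3 stood above Mup20 in all 8 libraries. Between neighbours in these orders, only Mup3 and Mup20 in DSSHA and Mup20 and Mup7 in DSS had ranges over libraries that did not overlap.

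The picture outside the 6 genes was mixed. Of the other 42 Mup rows, 19 had 0 counts in every library, among them Mup4 and Mup5, 15 had some counts but did not pass the filter, which asks for a minimum level in several libraries, and 8 were tested. All 8 had a negative log2 fold change, from -5.96 to -0.76, where 50.5% of tested genes were negative. Near-identical copies can share reads, so the 8 are not independent and nothing is read from that count. Of these 8, edgeR called 1 lower, the pseudogene Mup-ps19, and 7 did not pass. In CPM 2 of the 8, Mup-ps19 and Mup14, had no overlap between the groups, as did 4.63% of tested genes in the same direction. Mup14 had 0.112, 0.206, 5.74 and 1.35 CPM in DSSHA libraries 35, 45, 65 and 71. In DSS libraries 15, 48, 49 and 50 it had 7.11, 20.1, 18.3 and 9.53 CPM (log2 fold change -3.04 ± 0.91, edgeR adjusted p = 0.166). Mup-ps19 had 1.46, 6.50, 0.110 and 1.87 CPM in DSSHA libraries 35, 45, 65 and 71, against 31.1, 58.3, 25.0 and 106 CPM in DSS libraries 15, 48, 49 and 50 (log2 fold change -4.39 ± 0.78, edgeR adjusted p = 0.018).

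Mup12 had 0, 4, 65 and 292 counts in DSSHA libraries 35, 45, 65 and 71, against 2978, 8025, 3548 and 11 counts in DSS libraries 15, 48, 49 and 50, where DSS 50 stood below 2 DSSHA libraries. Mup11 had 8.40 to 119 CPM in DSSHA and 8.79 to 165 CPM in DSS libraries, ranges that cover each other almost entirely (log2 fold change -0.76 ± 0.87). Mup16 had 23, 2, 9 and 1466 counts in DSSHA libraries 35, 45, 65 and 71, against 420, 287, 872 and 4 in DSS libraries 15, 48, 49 and 50. In CPM the highest values of Mup16 were 58.2 in DSSHA 71 and 104 in DSS 49. The row named Gm21320, which RefSeq lists as Mup22 at the same place, was not among the 48. It had 11.0, 40.7, 5.19 and 49.7 CPM in DSSHA libraries 35, 45, 65 and 71, against 56.1, 259, 236 and 52.0 CPM in DSS libraries 15, 48, 49 and 50 (log2 fold change -2.49 ± 0.74, edgeR adjusted p = 0.161).

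Library DSS 50 was the lowest DSS library in 10 of the 12 tested Mup rows that lie before Mup20, Gm21320 counted among them, while it was the highest for Mup20. All 45 rows before Mup20, pseudogenes and edge copies included, summed to 29.7, 61.3, 190 and 195 CPM in DSSHA libraries 35, 45, 65 and 71. In DSS libraries 15, 48, 49 and 50 they summed to 618, 2050, 1803 and 299 CPM. The groups did not overlap, but the gap between DSSHA 71 and DSS 50 rested on the pseudogene Mup-ps19. Alone it gave 106 of the 299 CPM in DSS 50, against 1.87 of the 195 CPM in DSSHA 71. The mean of the 45 rows summed was 119 ± 85.9 CPM in DSSHA and 1193 ± 863 CPM in DSS. For Mup20, Mup3 and Mup21 summed it was 387 ± 135 CPM in DSSHA and 4210 ± 1090 CPM in DSS (SD, n = 4 each). Of all these counts, the 45 rows before Mup20 held 22.7 ± 13.4% in DSSHA and 20.4 ± 10.3% in DSS libraries (SD, n = 4 each). That share ran from 6.07 to 38.1% in DSSHA and from 6.47 to 28.2% in DSS. In sum both stretches of the cluster were thus lower in DSSHA by like factors, while single middle copies varied from library to library. Whether that comes from the assignment of reads among copies was not tested.

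**Figure D4:**
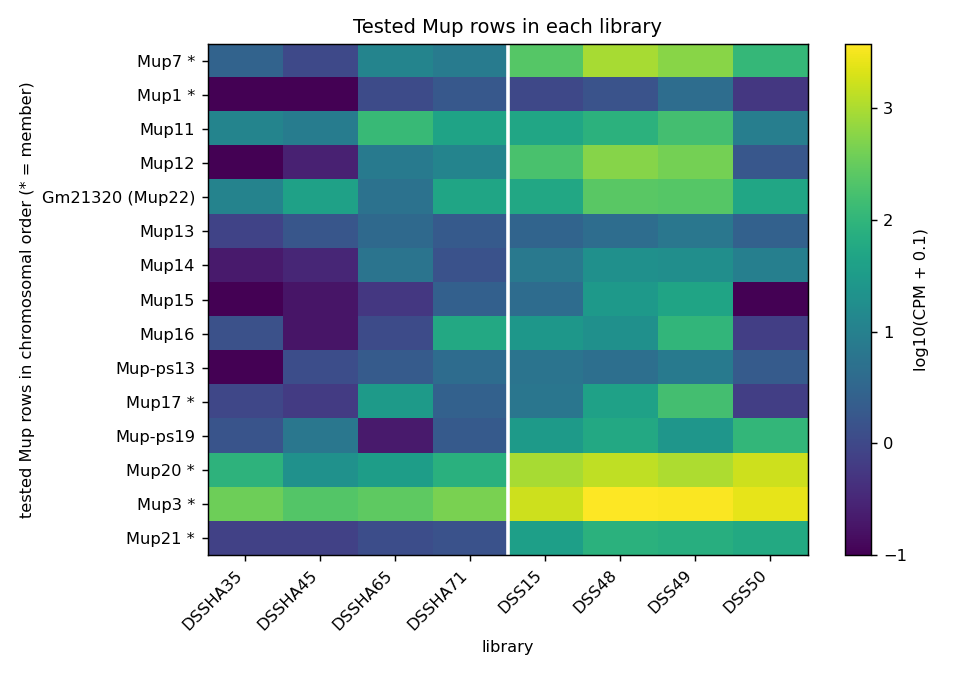
Rows are the tested Mup rows in chromosomal order with Gm21320 (Mup22) added, columns the libraries with DSSHA left of the white line, and colour is log10(CPM + 0.1). Mup20, Mup3 and Mup21 at the bottom separate the groups, as do Mup7, Mup14, Mup-ps19 and Gm21320 above them. Other copies such as Mup17, Mup16 and Mup11 overlap between the groups and differ within each group.

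Genes beside the cluster had a median log2 fold change close to that of all tested genes. Within 1 Mb on either side lay 47 other rows, of which 19 were tested and 0 were called by edgeR, DESeq2 or limma-voom, against 1.26% of all genes with edgeR. At an unadjusted edgeR p under 0.05 there was 1 higher and 1 lower. Their median log2 fold change was -0.03, from -1.79 to 1.39. With 19 rows, 0 calls lies near the share of all genes, so nothing is read from that count. Inside the cluster 3 rows without a Mup name were tested, and edgeR called 0 of them. Their log2 fold changes were -2.49 for Gm21320, -1.19 for Gm13775 and -1.05 for Gm12909.

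The 6 genes outside the family whose profile over the 8 libraries was closest to the summed Mup profile were Inmt, Ugt2a3, Cyp4a12a, Ugt2b38, Igfals and Ugt1a9. Closeness is the root mean square difference of centred log2 CPM, which was 0.50 for Inmt and 0.63 for Ugt1a9. Among the 6 Mup genes it was 0.24 for Mup3, which supplied most of the summed counts, and 0.71 for Mup20. It was 1.20 for Mup21, 1.61 for Mup1, 1.78 for Mup7 and 2.55 for Mup17. Inmt encodes indolethylamine N-methyltransferase. It had 21.2, 6.75, 17.0 and 9.76 CPM in DSSHA libraries 35, 45, 65 and 71, against 168, 209, 222 and 202 CPM in DSS libraries 15, 48, 49 and 50. Ugt2a3, Ugt2b38 and Ugt1a9 encode UDP-glucuronosyltransferases, Cyp4a12a an omega-hydroxylase of fatty acids, and Igfals the acid-labile subunit that holds IGF1 in the blood. Their log2 fold changes ran from -3.88 for Inmt to -2.56 for Ugt1a9. Closeness over 8 libraries in 2 groups largely follows the group difference and is given as a description.

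The growth hormone receptor pathway was examined as the known regulator of these genes. This list and those that follow were chosen with earlier results of these data known. Their counts of calls are therefore a description and not independent evidence. Of 12 listed genes 11 were tested (median log2 fold change -0.49). Of these 2 fell, 0 rose and 9 did not pass, where 0.674% of all tested genes were called lower and 0.588% higher. At an unadjusted edgeR p under 0.05, 3 were lower and 1 higher. Socs2, a STAT5-induced feedback inhibitor of growth hormone signalling, fell to 6.28 ± 4.50 CPM in DSSHA livers, against 41.9 ± 9.28 CPM in DSS livers (SD, n = 4 each). Its log2 fold change was -2.77 ± 0.41 (edgeR adjusted p = 0.0076). Igfals fell to 9.02 ± 6.02 CPM in DSSHA, against 62.6 ± 19.1 CPM in DSS livers (log2 fold change -2.79 ± 0.45, edgeR adjusted p = 0.011). The Igfals call was lost without DSS 48 or DSSHA 45 (edgeR adjusted p = 0.051 each) and with the mitochondrial share in the model (0.088).

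Igf1, the main growth hormone-induced hormone of liver, had 127 ± 62.6 CPM in DSSHA and 253 ± 26.8 CPM in DSS livers (log2 fold change -0.99 ± 0.31, edgeR adjusted p = 0.185), and it passed without DSSHA 65 (-1.38, adjusted p = 0.020). Socs3, a feedback inhibitor induced by interleukin-6, had 16.9 ± 11.9 CPM in DSSHA and 3.88 ± 3.58 CPM in DSS livers (log2 fold change 2.07 ± 0.62, edgeR adjusted p = 0.166). It passed without DSS 15 (2.98, adjusted p = 0.037), with mitochondrial genes left out (2.98, 0.035) and with DESeq2 (2.11, 0.022). The receptor gene Ghr had a log2 fold change of -0.60 ± 0.27 and Stat5b one of 0.06 ± 0.19, neither past the test (edgeR adjusted p = 0.436 and 0.944).

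Of 11 listed transcription factor genes tied to growth hormone-dependent or Mup expression, 8 were tested (median log2 fold change -0.25). Of these 0 passed with edgeR, where 1.26% of all tested genes were called. At an unadjusted edgeR p under 0.05, 1 was lower, limma-voom called 0 and DESeq2 called 1, Cebpa. In edgeR Cebpa, a factor of differentiated hepatocytes, stood at -0.92 ± 0.28 (edgeR adjusted p = 0.171). Onecut1, a growth hormone-responsive liver factor also called HNF6, stood at -1.48 ± 0.70, and Hnf4a, a general hepatocyte factor, at -0.38 ± 0.24.

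Among male-biased liver genes other than Mup, 18 of 20 listed were tested, of which 10 fell, 0 rose and 8 did not pass, where 0.674% of all tested genes were called lower. All 18 had a negative log2 fold change (median -2.98), as had 50.5% of all tested genes. Calls numbered 6 with the mitochondrial share in the model, 14 with DESeq2 and 7 with limma-voom, all of them lower. Keg1 fell to 2.85 ± 1.08 CPM in DSSHA, against 27.9 ± 2.60 CPM in DSS livers (log2 fold change -3.29 ± 0.30, edgeR adjusted p = 0.00043). Selenbp2 and Slco1a1, which encode a selenium-binding protein and an organic anion transporter, fell by 4.58 and 3.52 on the log2 scale (edgeR adjusted p = 0.0022 and 0.0051). Hsd3b5, a steroid dehydrogenase of male liver, fell to 0, 0, 0 and 7 counts in DSSHA libraries 35, 45, 65 and 71, against 56, 163, 91 and 34 counts in DSS libraries 15, 48, 49 and 50 (edgeR adjusted p = 0.0066). With limma-voom Hsd3b5 did not pass (adjusted p = 0.105).

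Of 25 listed female-biased genes 12 were tested, of which 1 rose, 1 fell and 10 did not pass (median log2 fold change 0.63), where 1.26% of all tested genes were called. Both calls depended on the libraries and the tool. The other 13 did not pass the filter on low counts, and 4 of them had 0 counts in every library. Among those 13, Sult1e1, an estrogen sulfotransferase, had 70, 285, 3 and 53 counts in DSSHA libraries 35, 45, 65 and 71 and 0 in every DSS library. Cyp2b10, a cytochrome P450, had 33, 53, 7 and 16 counts in the same DSSHA libraries and 0 in every DSS library. These were the 2 of the 13 whose groups did not overlap, where 8.77% of all tested genes did not overlap in either direction. Both were named after their values were seen. Without the filter edgeR called Cyp2b10 higher (adjusted p = 0.014) but not Sult1e1 (adjusted p = 0.070). In that fit A1bg, Cyp3a44 and Prom1 had negative log2 fold changes (-5.22, -2.94 and -1.71), none of them called. The rest of the 13 that had counts were positive. Cyp2b9 rose to 20.3 ± 20.5 CPM in DSSHA, against 1.35 ± 0.759 CPM in DSS livers (log2 fold change 3.91 ± 0.77, edgeR adjusted p = 0.032). Its call was lost without any of DSSHA 35, 45 and 65 or DSS 15, 48, 49 and 50 (adjusted p = 0.055 to 0.153). It was also lost with limma-voom (adjusted p = 0.444), the mitochondrial share in the model (0.124), mitochondrial genes left out (0.082) and no filter (0.231), and with limma on log2(FPKM + 1) (0.127) and log2(FPKM + 0.1) (0.091). Cyp2a4, a steroid hydroxylase nearly identical to Cyp2a5, fell to 0, 1, 3 and 1 counts in DSSHA libraries 35, 45, 65 and 71, against 81, 57, 12 and 56 counts in DSS libraries 15, 48, 49 and 50 (edgeR adjusted p = 0.010). That call was lost without DSS 50 (0.061) or DSSHA 45 (0.051), with limma-voom (0.144) and with the mitochondrial covariate (0.062). Atp6v0d2, a proton pump subunit, stood at 2.08 ± 0.86 (edgeR adjusted p = 0.363).

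Other lipocalins, which share the barrel fold of the Mup proteins, included genes that differed in the opposite direction. Of 10 listed genes 9 were tested (median log2 fold change 0.49). Of these 4 rose, 0 fell and 5 did not pass, where 0.588% of all tested genes were called higher and 0.674% lower. DESeq2 called 2 lower besides the 4, limma-voom called 0 lower, and 3 were lower at an unadjusted edgeR p under 0.05. Log2 fold changes were 5.81 for Orm2, 5.35 for Orm3 and 3.43 for Orm1, similar copies that encode plasma carriers of basic drugs, and 5.73 for Lcn2, which binds bacterial iron carriers (edgeR adjusted p = 3.4e-05, 3.4e-05, 0.00045 and 0.0027). Rbp4, the retinol carrier of plasma, stood at -0.80 ± 0.23 (edgeR adjusted p = 0.154).

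Without library DSSHA 35, edgeR called 2 growth hormone pathway genes, 0 transcription factor genes, 12 male-biased genes, 3 female-biased genes and 5 lipocalins.

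**Figure D5:**
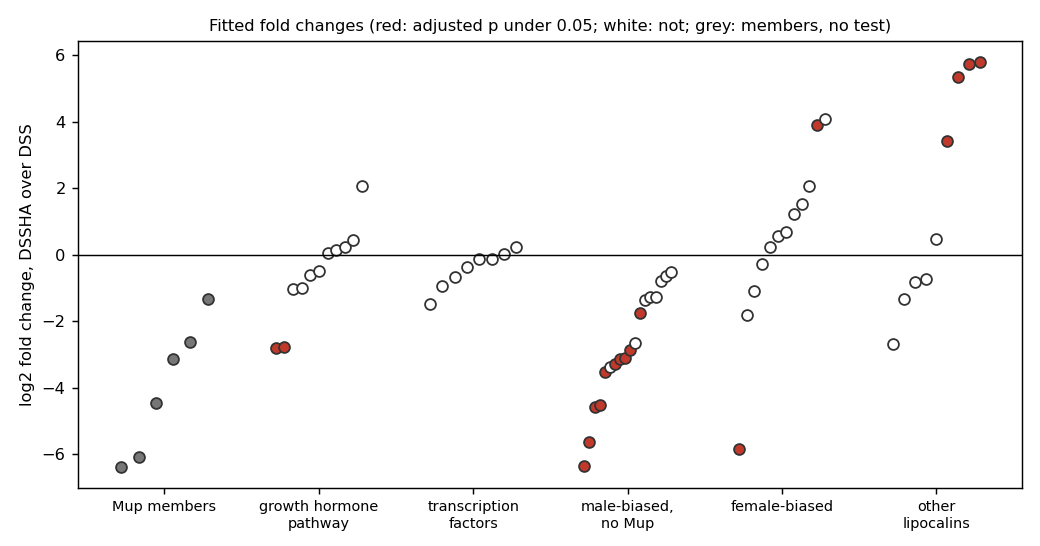
Points are fitted log2 fold changes, DSSHA over DSS, of the 6 Mup genes (grey, with no test) and of the tested genes of 5 lists, filled red where the edgeR adjusted p was under 0.05. The male-biased genes all lie below 0 with a median of -2.98, while 4 other lipocalins lie at 3.43 or more.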

How the data were processed

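The deposited table holds the authors' raw counts per gene and library, and the authors' FPKM. The deposited FPKM was checked to be proportional to count over gene length within each library. It also lists the authors' mean signal per group, log2 fold change, p-value and other deposited columns such as gene length, which were not used in tests. The builds GRCm38 and mm10 come from the submitters' processing notes; the aligner, counter, strand setting and handling of reads shared between copies are not stated in the sources read.

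After filterByExpr and TMM scaling, edgeR 4.0.16 in R 4.3.3 ran its robust quasi-likelihood test over all 8 libraries, with Benjamini-Hochberg adjustment over 11729 genes at a threshold of 0.05. An SE is the log2 fold change divided by the square root of F. The 6 Mup genes were also entered as 1 summed row. The genes, lists and tests were chosen with earlier results of these data known. Named are the 6 Mup genes, other Mup rows by range, up to 4 genes per list with the smallest p, and the 6 closest profiles (prior count 2); Ghr, Stat5b, Rbp4, Gm21320 and single Mup rows outside the 6 were added after their values were seen. Alternatives used DESeq2 1.42.0 and its size factors, limma 3.58.1, other filters, FPKM with pseudocounts 1 and 0.1, mitochondrial genes left out or as a covariate, and each library left out. The tests were tried on simulated data. Some genes that the rule names are not reported here.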

Additional observations from a re-analysis of the deposited data

Results flagged for a closer look

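In 3 places 1 library stood far from the other 3 of its group by Dixon's criterion, and 44 groups of 4 values were examined. Chance alone would meet the criterion in about 1 of 20 groups if values were normally distributed. CPM and shares were used without a log scale, and their distribution was not tested. The flags for the CPM and the share of Mup17 rest on the same counts. Library DSSHA 65 had 30.9 CPM of Mup17, where DSSHA 35, 45 and 71 had 0.840, 0.535 and 2.54 CPM. In the same library Mup17 made up 8.79% of the 6 genes' counts, against 0.181, 0.218 and 0.462% in DSSHA 35, 45 and 71. Library DSSHA 71 had 58.2 CPM of Mup16, where DSSHA 35, 45 and 65 had 1.29, 0.0823 and 0.994 CPM. Mup17 and Mup16 lie close together among the middle copies of the cluster, and the high libraries differ between them.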

How the results depend on the processing

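No paired analysis was possible because no number in the labels occurs in both groups. The log2 fold change of the 6 genes summed kept its sign under every alternative run, and leaving out each library moved it between -3.75 and -3.38. Summing other rows, chosen after the data were seen, gave -3.45 for all 48 Mup rows, -2.74 for those outside the 6 genes and -5.22 for the 4 genes other than Mup3 and Mup20. The count of called genes, 148, was 484 with DESeq2, 249 without a filter and 55 with the mitochondrial share as a covariate. It ran from 58 to 308 when single libraries were left out: 58 without DSS 48, 74 without DSS 49, 77 without DSS 50, 83 without DSSHA 45 and 308 without DSSHA 35. In the growth hormone list 1 gene was called with that covariate and 1 to 3 with single libraries left out. DESeq2 called 1 transcription factor gene. Male-biased calls were 6 with the covariate and 7 to 12 with libraries left out, and lipocalin calls 4 to 5. Of 2 female-biased calls, 0 were left with limma-voom and with the covariate, 1 with the 1 CPM filter, on log2(FPKM + 1), on log2(FPKM + 0.1) and with mitochondrial genes left out, and 0 to 3 with libraries left out; the cause was not tested. Counts of 0 to 44 limit Mup1.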
